A study of Mus musculus with 15 samples.

Results

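The cytochrome P450 genes of families 1 to 4 were taken as every gene on the array whose single annotated symbol begins Cyp1, Cyp2, Cyp3 or Cyp4, followed by a subfamily letter and a gene number. They are 54 of the 18193 genes measured: 3 of family Cyp1, 35 of Cyp2, 5 of Cyp3 and 11 of Cyp4. Each gene is represented by 1 probe set, the one with the highest mean over all 15 arrays, and 11 of the 54 have more than 1. No member was removed for a low value. For 24 members every one of the 15 arrays lay below 5.76, the lower quartile of the gene means on the log2 scale. These are called dim here, and the other 30 are not.

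Total RNA from colon of male mice aged 3 months, littermates of a C57BL/6 and 129 hybrid background, was measured on 15 Affymetrix Mouse430_2 arrays, 3 in each of 5 groups. Wild type colon was APC+/+/Olfm4+/+, APC mutant colon APC+/-/OLFM4(+/+), and Olfm4 mutant colon APC+/+/Olfm4-/-. The adjacent tissue and the tumours both came from APC+/-/Olfm4-/- mice, called double mutant here, so the difference between those groups is one of tissue and not of genotype. The labels do not name the APC allele or say how the Olfm4 mutation was made. The series text states 3 mice a category, but the titles of the double mutant arrays carry only 2 animals: replicate 1 of adjacent tissue and of tumour is one animal, and replicates 2 and 3 of both are another. P-values therefore measure a spread that is partly within an animal.

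All values are the authors' log2 values, with array medians between 6.35 and 6.47. Olfm4 lay between 2.97 and 3.32 on every array, wild type included, near the bottom of the scale (lowest value 2.56), so its probe set could not check the genotypes. The 12 absorptive colonocyte markers examined had wild type means of at least 10.76. A technical measure, the 3-prime minus 5-prime difference of added bacterial control RNAs, was 1.99 ± 0.0831 (SD, 3 arrays) in wild type, 2.16 ± 0.203 for APC mutant, 2.64 ± 0.525 for Olfm4 mutant, 4.10 ± 0.3 for adjacent tissue and 5.01 ± 0.255 for tumour. It moved with the groups. The array numbers in the labels go from wild type through tumour 1 group at a time, and the labels do not say what they order, so array number and group cannot be told apart.

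Cytochromes P450 are haem enzymes of the endoplasmic reticulum that insert an oxygen atom into their substrates with electrons passed on by P450 reductase. Families 1 to 3 are known mainly for oxidising drugs, dietary compounds, steroids and carcinogens, and several Cyp2c and Cyp2j enzymes turn arachidonic acid into epoxides or hydroxy acids, while Cyp4 enzymes hydroxylate the far end of fatty acids and eicosanoids. Their genes answer to ligand-sensing transcription factors, with the aryl hydrocarbon receptor acting on family 1, the receptors CAR and PXR on Cyp2b and Cyp3a, and PPAR alpha on Cyp4a. In the gut these enzymes sit mostly in the absorptive epithelium.

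Promoters are shown for 6 members whose values carry the results below: Cyp2c55, Cyp2c65 and Cyp2c68, genes of 1 chromosome cluster that were lower in tumours, Cyp2d9 and Cyp2d10 from a gene cluster that was lower nearly as a block, and Cyp2b10, which was higher. Each is the stretch of 250 bases before the RefSeq gene start, 5′ to 3′ on the gene's own strand, from RefSeq on GRCm38.p6. They were chosen after the values were seen. Capitals mark AAGTCCA, the core letters of a well-known HNF4 binding site, searched on both strands. They also mark TATAAA, letters of the TATA box, searched on the gene's strand. Both were searched as exact letters at any position, and other spellings of either were not searched. The windows are chr19:39006769-39007018 (plus strand), chr19:39060756-39061005 (plus), chr19:39741102-39741351 (minus), chr15:82452127-82452376 (plus), chr15:82407195-82407444 (minus) and chr7:25897408-25897657 (plus), in the order of the lines.
Cyp2c55: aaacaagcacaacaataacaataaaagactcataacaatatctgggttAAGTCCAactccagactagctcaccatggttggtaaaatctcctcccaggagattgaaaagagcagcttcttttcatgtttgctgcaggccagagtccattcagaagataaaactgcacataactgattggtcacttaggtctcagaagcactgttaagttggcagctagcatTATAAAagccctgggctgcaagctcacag
Cyp2c65: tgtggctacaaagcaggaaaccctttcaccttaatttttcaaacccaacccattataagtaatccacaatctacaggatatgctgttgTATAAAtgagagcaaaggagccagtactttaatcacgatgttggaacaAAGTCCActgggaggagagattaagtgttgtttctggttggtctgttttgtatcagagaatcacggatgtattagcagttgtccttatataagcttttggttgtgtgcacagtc
Cyp2c68: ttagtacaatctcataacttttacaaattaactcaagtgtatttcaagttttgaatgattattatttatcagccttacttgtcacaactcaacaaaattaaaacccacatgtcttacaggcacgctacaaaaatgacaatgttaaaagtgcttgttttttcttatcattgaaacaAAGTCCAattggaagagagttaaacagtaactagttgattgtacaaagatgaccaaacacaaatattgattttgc
Cyp2d9: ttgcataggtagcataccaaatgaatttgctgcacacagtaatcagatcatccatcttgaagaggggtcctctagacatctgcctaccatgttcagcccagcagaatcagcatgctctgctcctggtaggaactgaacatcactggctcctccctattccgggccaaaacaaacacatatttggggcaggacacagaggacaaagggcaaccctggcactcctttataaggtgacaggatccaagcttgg
Cyp2d10: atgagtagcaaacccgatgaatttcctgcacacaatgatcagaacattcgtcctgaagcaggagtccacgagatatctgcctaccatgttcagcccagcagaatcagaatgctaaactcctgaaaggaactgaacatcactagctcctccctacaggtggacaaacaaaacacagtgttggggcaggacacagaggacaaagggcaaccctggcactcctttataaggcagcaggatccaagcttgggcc
Cyp2b10: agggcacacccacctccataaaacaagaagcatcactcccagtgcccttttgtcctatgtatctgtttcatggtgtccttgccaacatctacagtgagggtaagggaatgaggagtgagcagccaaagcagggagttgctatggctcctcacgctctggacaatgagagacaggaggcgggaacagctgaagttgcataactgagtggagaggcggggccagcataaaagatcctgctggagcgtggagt

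AAGTCCA begins 202 bases before the start of Cyp2c55, 114 before that of Cyp2c65 and 75 before that of Cyp2c68. TATAAA begins 29 bases before the start of Cyp2c55 and 162 before that of Cyp2c65. The other windows shown hold neither run of letters. Over an alignment of the windows Cyp2d9 and Cyp2d10 are 82.8% identical, while every other pair of the 6 lies between 47.7% and 54.9%, including the pairs of Cyp2c genes.

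RefSeq windows matched 43 of the 54 members, and 27025 genes in all. AAGTCCA occurs in 3.32% of all windows and in 6 of the 43. Those 6 are Cyp2c55, Cyp2c65 and Cyp2c68 among 15 members that were lower in tumour than in adjacent tissue, Cyp3a11 among 4 that were higher, and Cyp2c70 and Cyp3a16 among 24 that were not called. TATAAA occurs in 8.12% of all windows and 11 of the 43, of which 2 are lower in tumour. ATCAAAG, the usual TCF letters of Wnt-responsive sites, was searched on both strands and occurs in 3.23% of all windows, in 2 of the 43, and in 0 of the 15 lower members. GCGTG, the core of the aryl hydrocarbon receptor site, was searched on both strands and occurs in 28.2% of all windows and in 10 of the 43, 4 of them lower in tumour. The motifs share no letters where they are marked. Windows were not matched for Cyp2c23, Cyp2c54, Cyp2d12, Cyp2d13, Cyp2d22, Cyp2d34, Cyp2g1, Cyp2u1, Cyp4a14, Cyp4a31 and Cyp4x1.

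Tumours were compared with the adjacent tissue of the same mice. Many of the P450 genes that the colon expresses well were lower in the tumours, the most by 45.8-fold, and 1 gene, Cyp2b10, was 16.5-fold higher. With limma, at an adjusted p under 0.05 (called, below), 21 of the 54 members were lower and 4 were higher. Over all genes 13.8% were called lower and 14.3% higher (28.1% in either direction), against 38.9% and 7.41% of the members. The median log2 difference of the 54 was -0.18, against 0.00 over all genes. Of 16 measured genes of the other P450 families, 2 were higher and 0 lower, with a median of 0.08. All 21 lower members and all 4 higher ones had tumour arrays that did not overlap the adjacent arrays. How many of all genes had such arrays was not counted, so this is not a trait shown to be particular to the members.

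The falls lay among the members that were not dim. Of the 30 members that were not dim, 20 were lower, 2 were higher and 8 were not called. No such count was made over all genes that were not dim, so the shares over all genes above are not a like background. Of the 24 dim members, 1 was lower, 2 were higher and 21 were not called, and no dim member moved by more than 1.18 on the log2 scale. A gene near the bottom of the scale cannot fall far, so the dim members say little about a fall.

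**Figure D1:**
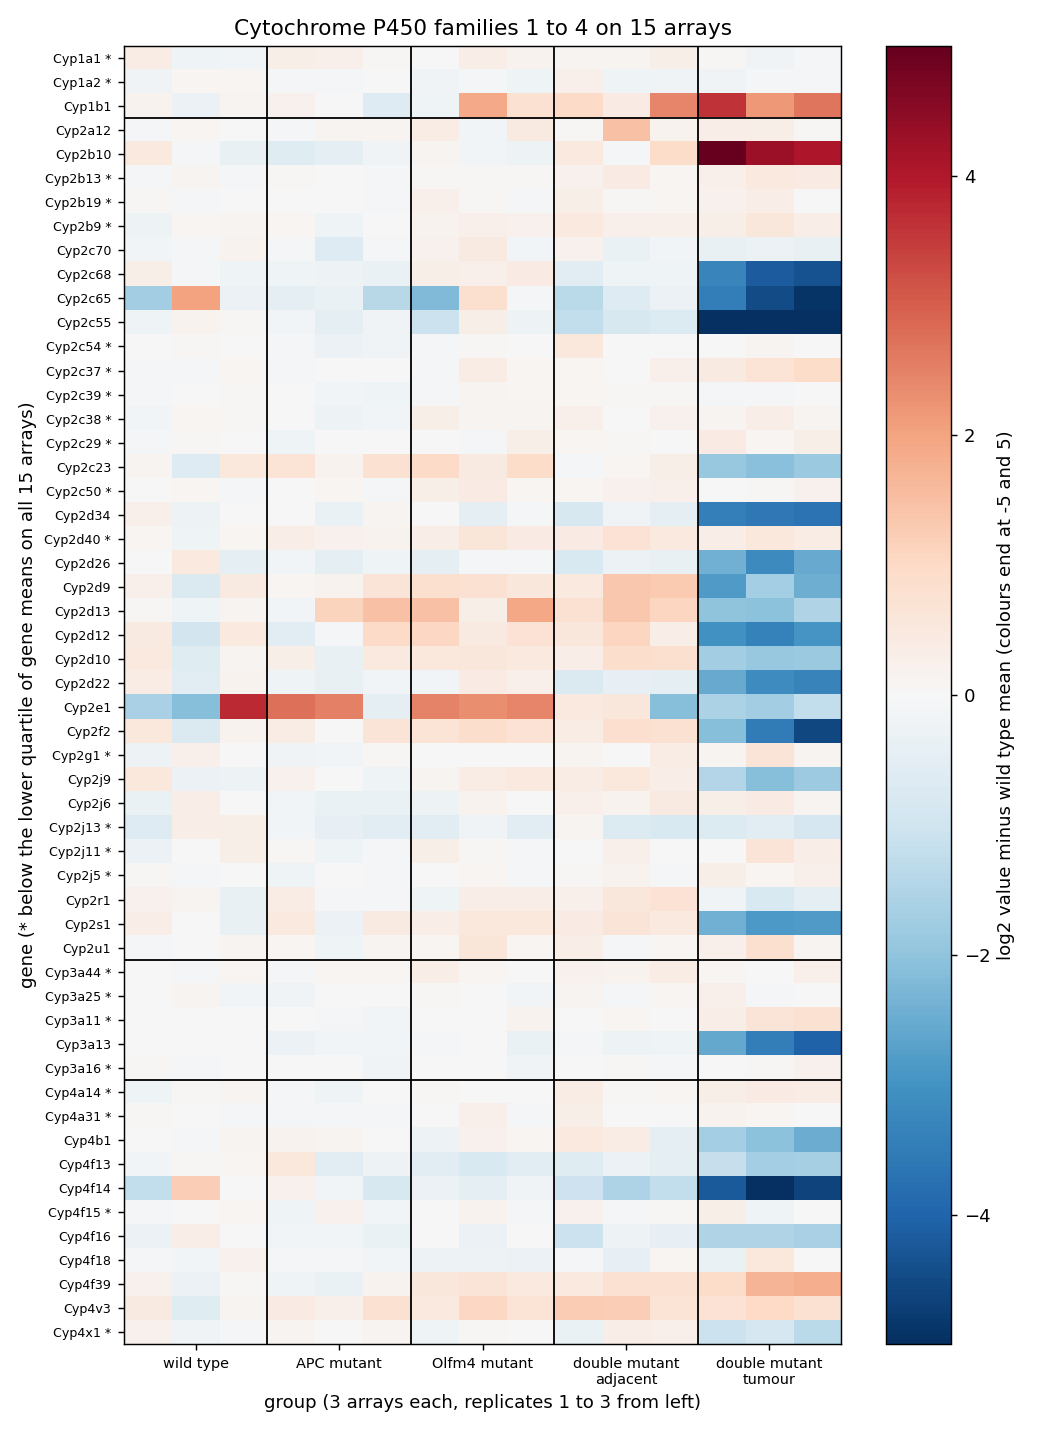
Log2 value of each of the 54 genes minus its wild type mean, on 15 arrays in 5 groups (columns, replicates 1 to 3 from the left), with genes in rows by family and dim genes starred; colours end at -5 and 5. Blue rows stand in the tumour columns for 7 of 8 Cyp2d genes and for Cyp2c55, Cyp2c65, Cyp2c68, Cyp2f2, Cyp2s1, Cyp3a13 and Cyp4f14, while Cyp2b10 and Cyp1b1 are red there.

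The Cyp2c subfamily holds the member with the largest fall. Cyp2c55, which oxidises arachidonic acid and is abundant in mouse colon, read 12.18, 12.57 and 12.47 in wild type, 12.27, 11.97 and 12.25 in APC mutant, and 11.34, 12.72 and 12.14 in Olfm4 mutant colon. It read 11.17, 11.59 and 11.73 in adjacent tissue and 6.74, 5.43 and 5.77 in tumour. The tumour arrays lay far below every other array. The log2 difference from adjacent tissue was -5.52 (SE 0.35, limma adjusted p = 3.8e-07). Cyp2c68 read 11.93, 12.22 and 12.22 in adjacent tissue and 9.14, 8.29 and 8.07 in tumour, a log2 difference of -3.62 (SE 0.22, limma adjusted p = 3.7e-07).

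Cyp2c65, a gut-expressed gene next to Cyp2c55 among those measured, varied widely among normal colons. It read 7.42, 11.17 and 8.87 in the wild type colons, 8.67, 8.83 and 7.78 in those of APC mutants and 6.94, 9.94 and 9.04 in those of Olfm4 mutants. Adjacent arrays read 7.81, 8.49 and 8.85 and tumour arrays 5.68, 4.69 and 4.23, all below the rest. Its log2 difference between tumour and adjacent tissue was -3.52 with a large SE of 0.86 (limma adjusted p = 0.0082). With the arrays of an animal averaged it was -3.17 and was no longer called (limma adjusted p = 0.081). Cyp2c23, an arachidonic acid epoxygenase, fell by 2.05 on the log2 scale, from 8.78, 8.94 and 9.16 to 6.96, 6.77 and 6.99. The kept probe sets of Cyp2c65 and Cyp2c23 carry a suffix for sequences shared between transcripts, so cross-hybridisation between these similar genes was not tested.

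The other Cyp2c genes were dim or little changed. Cyp2c37 was called higher (log2 difference 0.59, SE 0.14, limma adjusted p = 0.007), but it read only 3.75, 3.65 and 3.92 in adjacent tissue and 4.13, 4.37 and 4.59 in tumour. Cyp2c70, a bile acid hydroxylase of liver, and Cyp2c29, Cyp2c38, Cyp2c39, Cyp2c50 and Cyp2c54 were not called. In chromosome order the measured Cyp2c genes run Cyp2c55, Cyp2c65, Cyp2c29, Cyp2c39, Cyp2c38, Cyp2c68, Cyp2c37, Cyp2c54, Cyp2c50, Cyp2c70 and Cyp2c23, so the 4 that fell are not a single block.

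The Cyp2d subfamily fell nearly whole. It is the mouse counterpart of human CYP2D6, the drug-oxidising enzyme, and 7 of its 8 members were lower, with a subfamily median log2 difference of -2.72. Cyp2d12 fell by 3.76 (SE 0.41, limma adjusted p = 2.3e-05), from 10.09, 10.61 and 9.85 in adjacent tissue to 6.52, 6.14 and 6.6 in tumour. Cyp2d9 fell by 3.38 (SE 0.35, limma adjusted p = 1.6e-05), from 10.64, 11.52 and 11.46 to 7.31, 8.47 and 7.71. Cyp2d34 fell by 3.10 (SE 0.19, limma adjusted p = 3.1e-07), from 11.12, 11.73 and 11.47 to 8.48, 8.33 and 8.22. In none of these did a tumour array reach an adjacent one.

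The log2 difference was -2.94 for Cyp2d13, -2.49 for Cyp2d10, -2.46 for Cyp2d22 and -2.23 for Cyp2d26. Cyp2d40 was not called (-0.13, SE 0.13), and it was dim, between 4.35 and 5.3 on all arrays. Along chromosome 15 the order is Cyp2d22, Cyp2d10, Cyp2d9, Cyp2d12, Cyp2d34, Cyp2d13, Cyp2d40 and Cyp2d26. Whether probes of 1 Cyp2d gene also read another was not tested. The kept probe sets of Cyp2d9 and Cyp2d13, like those of Cyp1a1 and Cyp2f2, carry a suffix for several transcripts of 1 gene. Where another probe set exists it moved the same way, by -1.78 for Cyp2d13 and by -2.43 for Cyp2d22.

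**Figure D2:**
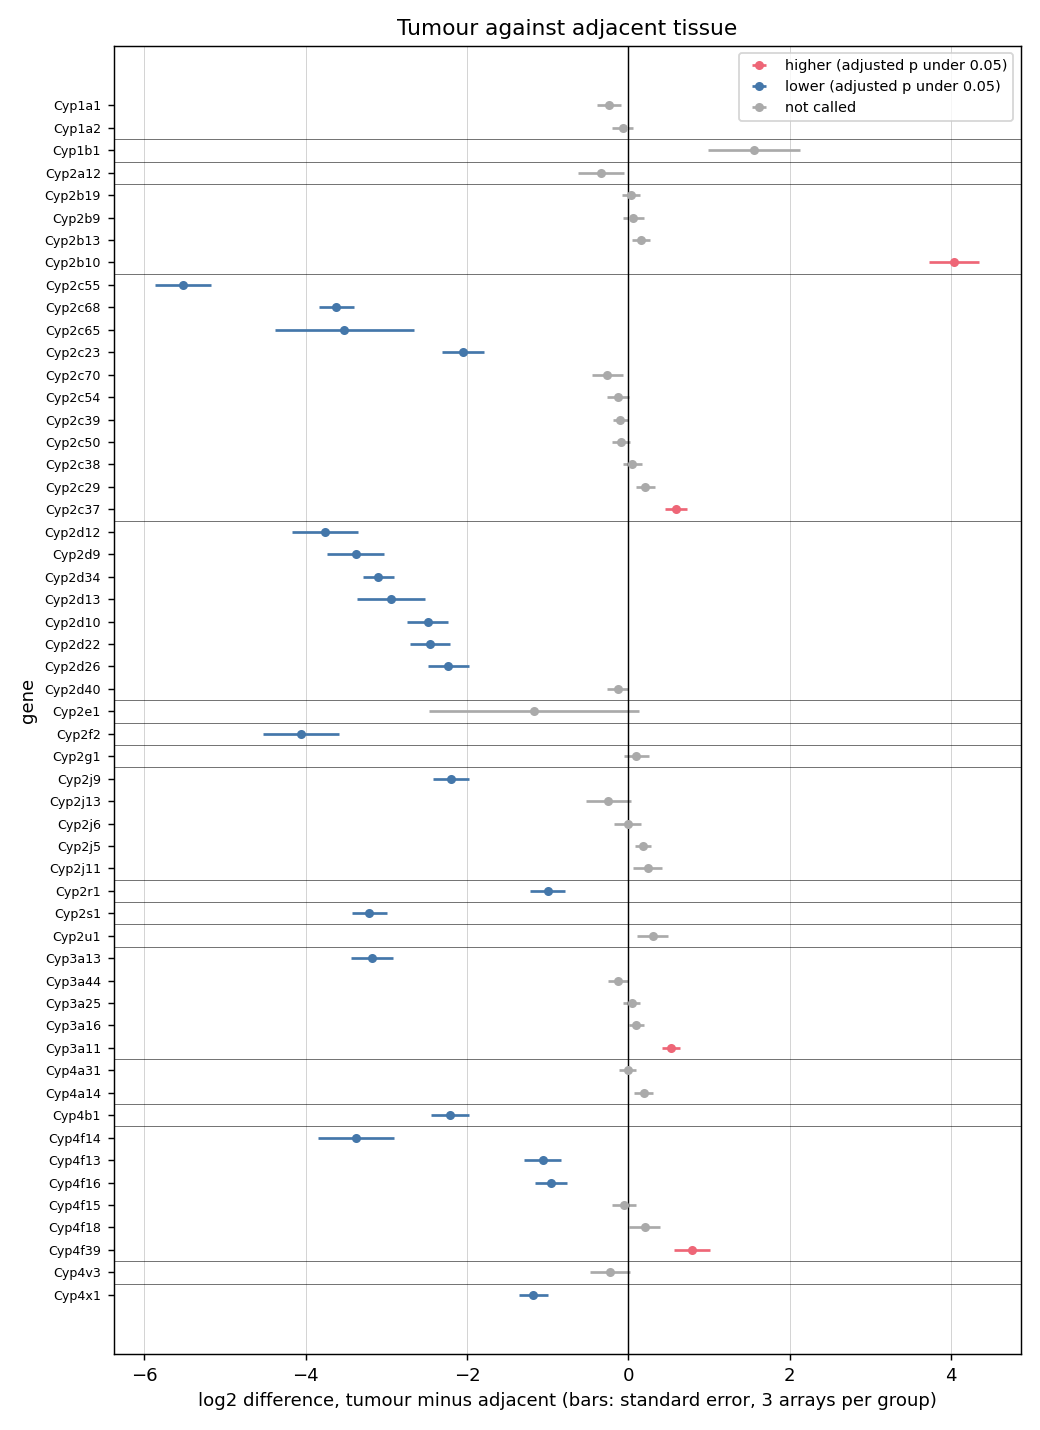
Log2 difference between tumour and adjacent tissue (horizontal axis, tumour minus adjacent) for each of the 54 genes, grouped by subfamily, with bars of 1 standard error and 3 arrays per group. The 21 genes called lower are blue, the 4 called higher red and the 29 not called grey; the Cyp2d genes lie together between -3.76 and -2.23 apart from Cyp2d40 at -0.13.

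Apart from Cyp2j9, the other Cyp2 genes that fell are the single measured members of their subfamilies. Cyp2f2, known for activating naphthalene in airway epithelium, read 10.7, 11.16 and 11.1 in adjacent tissue and 8.2, 6.82 and 5.76 in tumour (log2 difference -4.06, SE 0.47, limma adjusted p = 4.1e-05). Replicate 1 was the highest of the tumour arrays for this gene, and no tumour array reached an adjacent one. Cyp2s1, an aryl hydrocarbon receptor target of epithelia outside the liver, read 12.24, 12.49 and 12.32 in adjacent tissue and 9.44, 8.98 and 8.99 in tumour (-3.21, SE 0.22, limma adjusted p = 7.8e-07). Cyp2r1, a vitamin D hydroxylase, fell from 7.19, 7.52 and 7.67 to 6.77, 6.18 and 6.44. Of the 5 Cyp2j genes, a subfamily of fatty acid epoxygenases, Cyp2j9 fell by 2.20 and the others were not called. Cyp2j6 differed by -0.01 (SE 0.17).

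In family Cyp3, 1 gene fell and 1 dim gene rose. Cyp3a13, the main Cyp3a enzyme of mouse intestine, read 12.32, 12.12 and 12.17 in adjacent tissue and 9.81, 8.93 and 8.33 in tumour, a log2 difference of -3.18 (SE 0.26, limma adjusted p = 3.1e-06). The other Cyp3a genes, which are liver enzymes, were dim. Cyp3a11 among them was called higher by 0.53 (SE 0.11, limma adjusted p = 0.003) at readings of 3.53 to 3.94 in tumour. Cyp3a16, Cyp3a25 and Cyp3a44 were not called.

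In family Cyp4 the leukotriene hydroxylase Cyp4f14 fell most. It read 9.15, 8.67 and 8.97 in adjacent tissue and 6.02, 5.06 and 5.59 in tumour (log2 difference -3.38, SE 0.47, limma adjusted p = 0.00017). Wild type colons were spread for this gene, at 8.97, 11.43 and 10.21, so adjacent tissue overlapped them. Cyp4b1, which hydroxylates fatty acids and activates some toxins, fell by 2.21, and the brain-expressed Cyp4x1 by 1.18 among dim readings. Cyp4f13 fell by 1.06 and Cyp4f16 by 0.96. Cyp4f39, the mouse counterpart of an enzyme of skin-barrier lipids, rose by 0.79 (SE 0.22, limma adjusted p = 0.016), from 6.77, 7.04 and 7.05 to 7.19, 7.97 and 8.07. The call for Cyp4f39 was lost without adjacent replicate 1 (limma adjusted p = 0.061), tumour replicate 2 (0.067) or tumour replicate 3 (0.075), with the arrays of an animal averaged (0.11) and with only the groups compared (0.053). The PPAR alpha targets of subfamily Cyp4a stayed dim and were not called, with 0.19 for Cyp4a14 and -0.01 for Cyp4a31. Cyp4v3, a fatty acid hydroxylase whose kept probe set carries the suffix for shared sequences, was not called either (-0.23).

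Cyp2b10 went the other way. This classical CAR target of mouse liver read 5.53, 4.95 and 5.95 in adjacent tissue and 10.2, 9.31 and 9.07 in tumour (log2 difference 4.04, SE 0.31, limma adjusted p = 1.7e-06). In wild type it read 5.5, 4.93 and 4.64, in APC mutant 4.44, 4.55 and 4.87, and in Olfm4 mutant colon 5.15, 4.9 and 4.77. All 3 tumours stood apart from all other arrays. The gene's other probe sets rose too, by 5.30 and 5.18. The other Cyp2b genes, Cyp2b9, Cyp2b13 and Cyp2b19, were dim and not called.

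Family Cyp1, the textbook targets of the aryl hydrocarbon receptor, gave no call between tumour and adjacent tissue in the model without an animal term. Cyp1a1 differed by -0.24 and Cyp1a2 by -0.07, and both were dim. Cyp1b1, which oxidises oestrogens and polycyclic hydrocarbons, read 6.78, 6.24 and 8.27 in adjacent tissue and 9.45, 8.01 and 8.51 in tumour. The ranges overlap through adjacent replicate 3, and the log2 difference of 1.56 had an SE of 0.57 (limma adjusted p = 0.058). Without that array the difference was 2.15 and was called (limma adjusted p = 0.013), and with the control-RNA covariate it was 0.18. With animal as a random block the difference of 1.56 was called (limma adjusted p = 0.03). Of the remaining subfamilies with 1 member, Cyp2a12 (-0.34), Cyp2g1 (0.10) and Cyp2u1 (0.30) were not called.

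**Figure D3:**
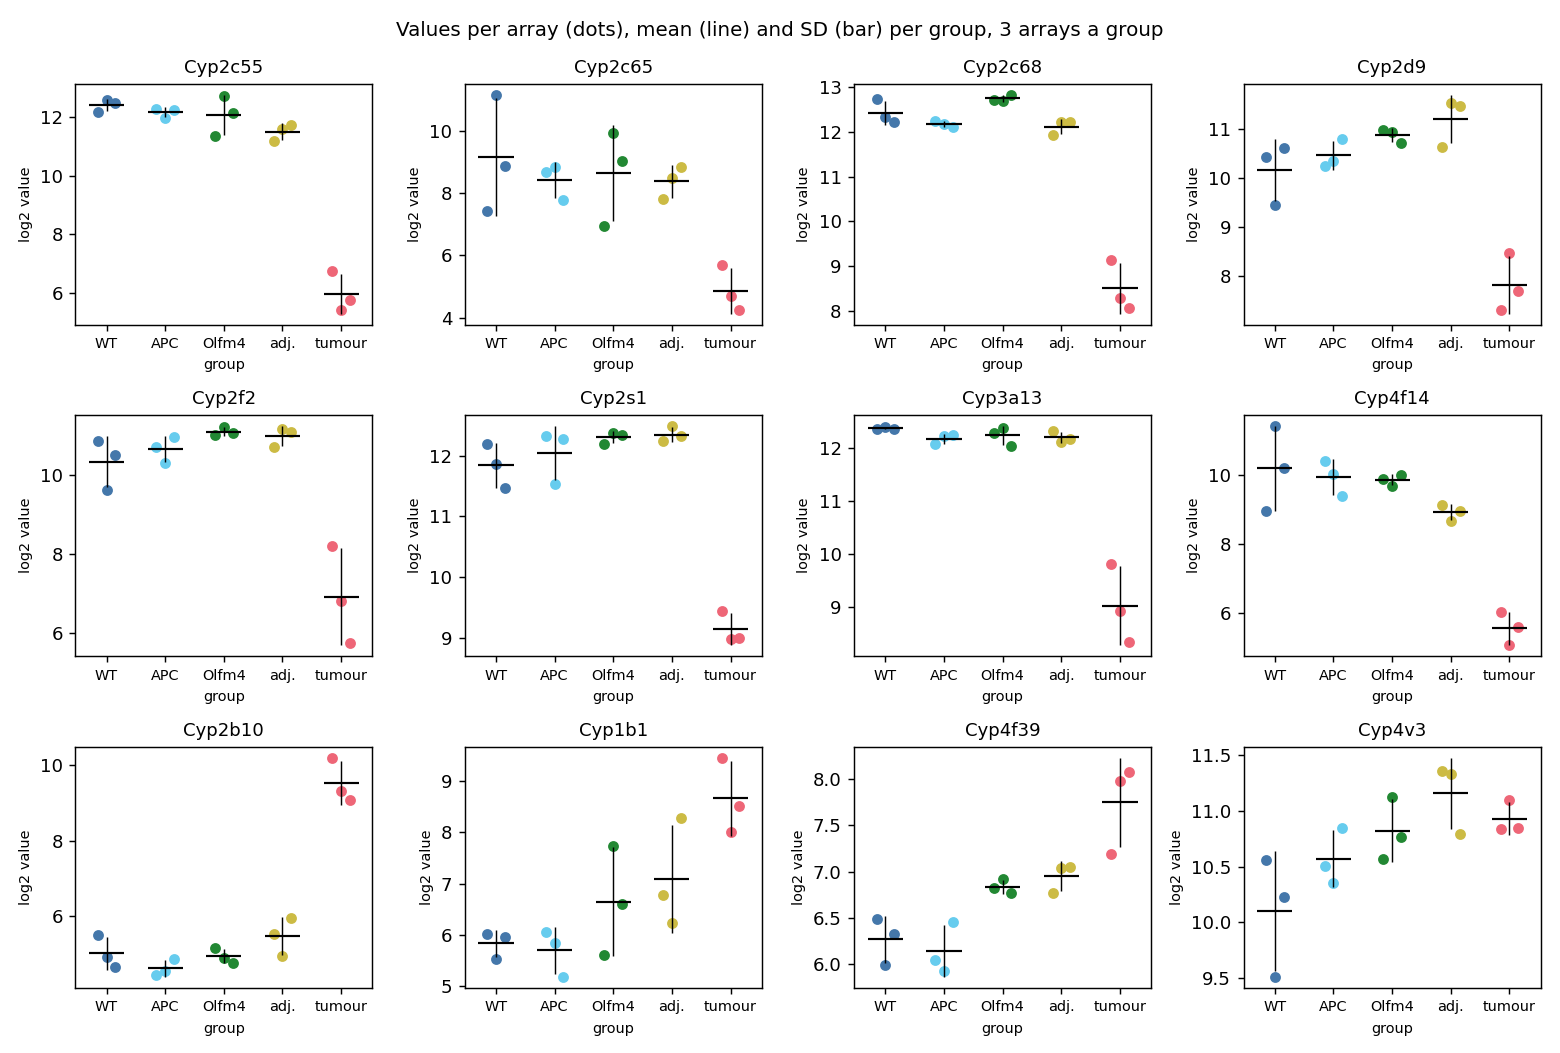
Log2 values (vertical axis, a separate scale in each panel) of 12 genes on each array (dots), with group means (lines) and SD (bars), 3 arrays per group; WT is wild type and adj. double mutant adjacent tissue. The 3 tumour dots lie below all others for Cyp2c55, Cyp2c65, Cyp2c68, Cyp2d9, Cyp2f2, Cyp2s1, Cyp3a13 and Cyp4f14 and above all others for Cyp2b10 and Cyp4f39.

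These are whole tissue pieces, in which fewer cells of a type and less RNA per cell cannot be told apart. Markers of other cell classes moved too. Of 12 absorptive colonocyte markers 10 were lower in tumour than in adjacent tissue and 1 was higher (Slc9a3), and their summed log2 level ran from 16.81 to 16.97 in wild type, 16.30 to 16.48 in adjacent tissue and 14.63 to 15.02 in tumour. Of 9 small intestinal enterocyte markers 4 were lower, of 7 goblet cell markers 6 and of 8 smooth muscle markers 8. Of 7 fibroblast markers 1 was lower and 1 higher, of 6 endothelial markers 0 were called, and of 7 macrophage markers 1 was lower. The 10 hepatocyte markers gave 4 higher and 2 lower, with summed levels of 13.61 to 13.70 in adjacent tissue and 12.82 to 13.17 in tumour. Most of that sum is Ttr, at 13.56, 13.62 and 13.51 in adjacent tissue and 13.06, 12.78 and 12.52 in tumour. Alb read 6.63, 6.83 and 8.35 in adjacent tissue and 7.79, 9.64 and 9.72 in tumour. The part of cell make-up in the P450 differences was not tested.

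With the control-RNA difference as a covariate, 20 of the 25 calls between tumour and adjacent tissue were kept and all 25 differences had the same sign. The calls lost were those of Cyp2c37, Cyp4f39, Cyp2r1, Cyp4f13 and Cyp4f16. Cyp2c55 then differed by -6.25 (SE 0.47) and Cyp2b10 by 3.71 (SE 0.48).

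Genes that work with the P450 enzymes were counted from lists. Of 19 measured regulators, 11 were lower in tumour than in adjacent tissue and 1 was higher, with a median log2 difference of -1.05. Nr1h4, the bile acid receptor FXR, fell by 2.41 (SE 0.19, limma adjusted p = 2.4e-06), from a mean of 10.36 to 7.96. Vdr, the vitamin D receptor, fell by 2.25 (SE 0.22, limma adjusted p = 1.2e-05). Ahrr, the repressor of the aryl hydrocarbon receptor, fell by 1.95 (SE 0.19, limma adjusted p = 1.1e-05), and Hnf4g, a nuclear receptor of gut epithelium, by 1.71 (SE 0.28, limma adjusted p = 0.00048). For each of these genes no tumour array overlapped an adjacent one. The count of 11 includes calls lost under other settings. Rxra lost its call with its probe sets averaged (-0.17, limma adjusted p = 0.42), and Nr3c1 with its most variable probe set (0.12, limma adjusted p = 0.74). With the control-RNA covariate the calls of Nr1h3 (limma adjusted p = 0.14) and Rxra (0.35) were lost. With the arrays of an animal averaged that of Nr3c1 was lost (limma adjusted p = 0.062).

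The receptors that give the P450 families their textbook control were also looked up, after their values had been seen. Ahr, the aryl hydrocarbon receptor itself, was the 1 regulator that rose, by 0.85 (SE 0.22, limma adjusted p = 0.01). Its tumour arrays clustered near a mean of 12.04 against 11.20 in adjacent tissue, but the call was lost when all its probe sets were averaged (0.39, limma adjusted p = 0.052). Nr1i2, which encodes PXR, fell by 1.46 (SE 0.16, limma adjusted p = 2.2e-05). Nr1i3, which encodes CAR, fell by 1.70 (SE 0.42, limma adjusted p = 0.0084), with adjacent arrays spread widely, and lost its call when only the compared groups were fitted (limma adjusted p = 0.055). Hnf4a, whose binding letters are marked in the promoters above, fell by 0.38 (SE 0.091, limma adjusted p = 0.0073) from a mean of 13.67, a call lost with the replicate number as a block (limma adjusted p = 0.073). With the arrays of an animal averaged the calls of Ahr (limma adjusted p = 0.086), Nr1i3 (0.063) and Hnf4a (0.06) were lost, and with the control-RNA covariate those of Ahr (0.39) and Nr1i3 (0.22). Ppara, the regulator of Cyp4a, differed by -1.11 (SE 0.39) with arrays that did not overlap, and lay at the threshold without being called (limma adjusted p = 0.05).

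**Figure D4:**
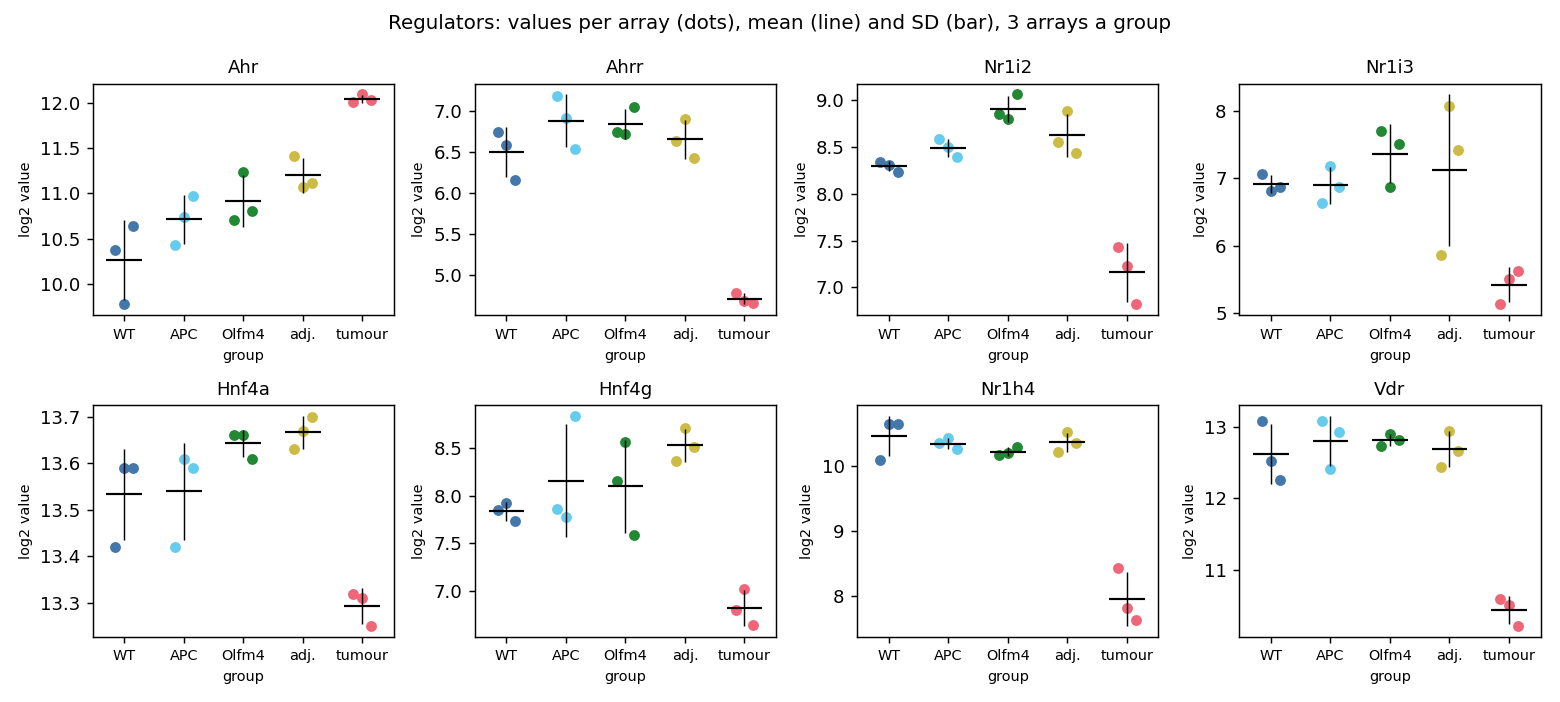
Log2 values (vertical axis, a separate scale in each panel) of 8 regulators on each array (dots), with group means (lines) and SD (bars), 3 arrays per group; WT is wild type and adj. double mutant adjacent tissue. Tumour dots lie above all others for Ahr and below all others for the remaining genes shown.

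Of 10 measured genes for electron donors and haem supply, 2 were higher in tumour and 0 lower. Hmox1, which breaks down haem, rose by 2.03 (SE 0.27, limma adjusted p = 0.00012), from 7.66, 7.31 and 7.84 to 9.97, 9.04 and 9.9. Cyb5r1, a cytochrome b5 reductase, rose by 0.50, a call lost with the arrays of an animal averaged (limma adjusted p = 0.057), with the control-RNA covariate (0.21) and at a fold of at least 1.5. Por, the obligate electron donor, was on the list but not among the genes measured. Of 11 genes that handle epoxides and eicosanoids beside the P450 enzymes, 4 rose and 2 fell. The lipoxygenase Alox12 rose by 4.52 (SE 0.42, limma adjusted p = 6.5e-06), from 7.23, 7.12 and 8.98 to 12.69, 12.17 and 12.04. Alox15 rose by 2.30, a call lost with the control-RNA covariate, where it differed by 1.78 (limma adjusted p = 0.063). Hpgd, which inactivates prostaglandins, fell by 2.47, and the epoxide hydrolase Ephx2 by 2.12.

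Tumour against wild type gave 30 called members, 20 lower and 10 higher, where 49.4% of all genes were called (20.1% lower, 29.3% higher). The lower share of the members, 37.0%, lay above that background and the higher share, 18.5%, below it. All 30 had arrays that did not overlap, a share that was not counted over all genes. The largest differences were -6.43 for Cyp2c55 (SE 0.35, limma adjusted p = 4.7e-08), -4.65 for Cyp4f14, -4.29 for Cyp2c65 and -3.94 for Cyp2c68. Cyp2b10 was higher by 4.50 (SE 0.31, limma adjusted p = 3.7e-07), Cyp1b1 by 2.82 (SE 0.57, limma adjusted p = 0.0011) and Cyp4f39 by 1.47 (SE 0.22, limma adjusted p = 0.00011). The other 7 higher members were Cyp4v3, Cyp2c37, Cyp3a11, Cyp2d40, Cyp2b9, Cyp2b13 and Cyp4a14, between 0.36 and 0.83, and 6 of the 10 were dim. The call of Cyp4v3 was lost with its other probe set (0.34, limma adjusted p = 0.29), with its probe sets averaged (0.58, limma adjusted p = 0.063) and without wild type replicate 2 or tumour replicate 2. Calls were also lost without wild type replicate 1 or tumour replicate 2 for Cyp2b9, without wild type replicate 2 or tumour replicate 2 for Cyp2d40, and without wild type replicate 1 or tumour replicate 2 or 3 for Cyp4a14. This comparison shares its tumour arrays with the one above, and it differs in both genotype and tissue. The control-RNA difference goes from 1.99 to 5.01 across it, and with that covariate 0 members were called, with a median SE of 0.98.

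Adjacent double mutant tissue against wild type gave 5 called members, where 27.8% of all genes were called (17.7% higher, 10.1% lower). The members' share was 9.26%. Cyp4v3 was higher by 1.06 (SE 0.25, limma adjusted p = 0.0084), reading 10.56, 9.51 and 10.23 in wild type and 11.36, 11.33 and 10.79 in adjacent tissue. Cyp2d9 was higher by 1.04 (SE 0.35, limma adjusted p = 0.04), Cyp4f39 by 0.69 (SE 0.22, limma adjusted p = 0.034) and the dim Cyp2d40 by 0.56 (SE 0.13, limma adjusted p = 0.0065). Cyp4f16 was lower by a log2 difference of -0.58 (SE 0.2, limma adjusted p = 0.046), with overlapping arrays. Cyp2c55 (-0.91, SE 0.35, limma adjusted p = 0.067) and Cyp4f14 (-1.27, SE 0.47, limma adjusted p = 0.063) fell just short of a call. Under cyclic loess the split of 4 higher and 1 lower became 2 higher and 6 lower, while the median difference over all genes went from 0.132 to 0.0126 (0.106 to -0.00714 in tumour against wild type, 0.145 to 0.0245 in adjacent against APC mutant). With animal as a random block the calls of Cyp2d9 (limma adjusted p = 0.064), Cyp4f39 (0.054) and Cyp4f16 (0.062) were lost, and with the arrays of an animal averaged the same 3 were lost (0.12, 0.095 and 0.052). When only the groups compared were fitted, 1 of the 5 calls was kept. Those of Cyp4v3 (limma adjusted p = 0.06) and Cyp2d40 (0.051) were among the calls lost. With the control-RNA covariate 0 were called. Without wild type replicate 1 the count was 11, without wild type replicate 2 it was 3 and without adjacent replicate 3 it was 2.

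Few or no members were called in the single mutants. Olfm4 mutant colon gave 1 called member, where 7.92% of all genes were called (5.42% higher, 2.5% lower). It was the dim Cyp2d40, higher by 0.45 (SE 0.13, limma adjusted p = 0.046), a call kept only without wild type replicate 1 among the single-array omissions, and lost without each of the others (log2 difference 0.35 to 0.51). Unadjusted, 7 of 54 members had p under 0.05 with limma, as did 4467 of 18193 genes. Cyp2d13 differed by 1.22 (SE 0.42, limma adjusted p = 0.094) with arrays that did not overlap, and 12 of the 53 members not called had such arrays. The share of all genes with such arrays was not counted here either. APC mutant colon gave 0 called members, 0 of 54 at an unadjusted p under 0.05 and 0 of all genes with limma (0.0% called), while 1324 of 18193 genes had an unadjusted p under 0.05.

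Adjacent tissue gave 2 called members against APC mutant colon, where 17.3% of all genes were called (9.88% higher, 7.45% lower). Cyp4f39 was higher by 0.81 (SE 0.22, limma adjusted p = 0.024) and Cyp2j6 by 0.54 (SE 0.17, limma adjusted p = 0.045). Another probe set of Cyp2j6, the most variable one, gave -0.33, and with every single array left out at least 1 of the calls was lost. Against Olfm4 mutant colon 0 members were called with limma (0.044% of all genes, 0.0385% higher and 0.0055% lower). At an unadjusted p under 0.05 there were 4 of 54 members and 2960 of 18193 genes. In a test of whether the adjacent-minus-APC mutant difference exceeded the Olfm4 mutant-minus-wild type difference, limma called 0 of 54 members and 0 of 18193 genes, with 3 and 1901 at an unadjusted p under 0.05.

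Cyp2e1, the ethanol-oxidising enzyme of liver and fat, was the member with the widest spread inside groups. It read 4.33, 3.85 and 9.7 in wild type, 8.7, 8.47 and 5.52 in APC mutant, and 8.43, 8.28 and 8.39 in Olfm4 mutant colon. It read 6.44, 6.54 and 3.82 in adjacent tissue and 4.37, 4.22 and 4.71 in tumour. High and low arrays occur within wild type, APC mutant and adjacent tissue, and no comparison was called. Its SE was 1.3, so tumour minus adjacent (-1.17) and Olfm4 mutant minus wild type (2.41, limma adjusted p = 0.28) could not be told from 0.

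The fat cell hormone gene Adipoq showed the same arrays high and low. Wild type arrays read 4.75, 4.24 and 10.31, APC mutant arrays 9.55, 9.33 and 5.94, and Olfm4 mutant arrays 8.25, 9.18 and 8.9. Adjacent arrays read 6.77, 6.89 and 4.48 and tumour arrays 3.75, 4.2 and 3.8. The marker Cidec differed from this, with 4.93, 7.86 and 8.3 in wild type and 5.81, 6.29 and 5.82 in adjacent tissue. Wild type arrays read 6.55, 6.56 and 9.73 for Retn, 11.16, 10.96 and 12.37 for Fabp4, and 3.83, 3.92 and 4.63 for Lep. The 5 measured adipocyte markers had summed log2 levels of 11.20 to 12.92 (wild type), 11.35 to 12.38 (APC mutant), 12.06 to 12.24 (Olfm4 mutant), 10.80 to 11.65 (adjacent tissue) and 9.31 to 10.05 (tumour). Of these 5 markers 1, Fabp4, was lower in tumour than in adjacent tissue. Their part in the Cyp2e1 values was not tested.

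**Figure D5:**
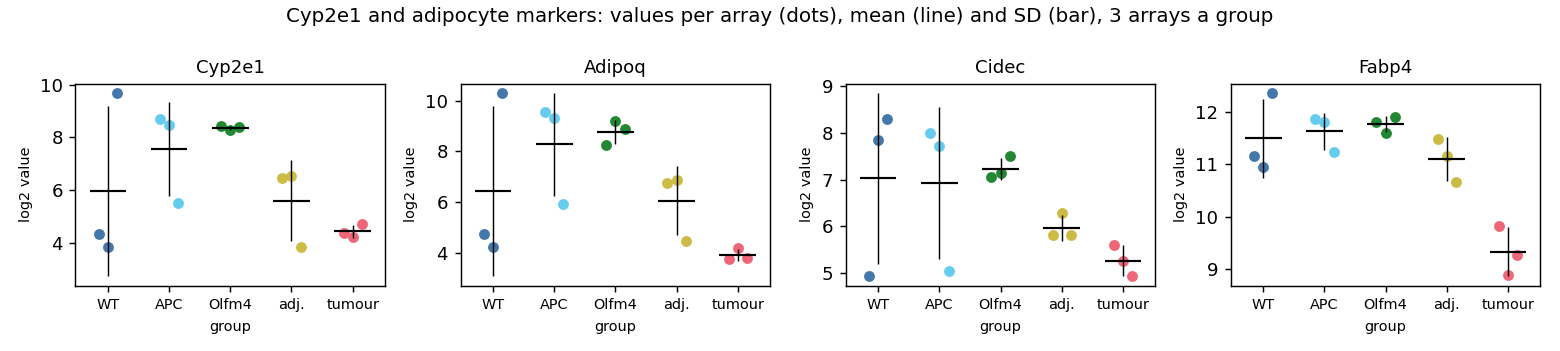
Log2 values (vertical axis, a separate scale in each panel) of Cyp2e1 and the adipocyte markers Adipoq, Cidec and Fabp4 on each array (dots, replicates 1 to 3 from the left), with group means (lines) and SD (bars), 3 arrays per group; WT is wild type and adj. double mutant adjacent tissue. Wild type replicate 3 is high at 9.7 for Cyp2e1 and 10.31 for Adipoq, and APC mutant replicate 3 is low at 5.52 and 5.94. Cidec is high on wild type replicate 2 as well as 3, at 7.86 and 8.3.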

How the data were processed

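RNA was extracted with Trizol, labelled with biotin as cRNA and hybridised, per the labels' protocols. The authors deposited log2 values made with RMA, and Partek 6.5 is also named, per the submitters' processing notes. RMA quantile normalizes arrays together, so a shift of most genes one way is largely removed. No detection calls were used, and the build is not given in the sources used here. The platform annotation gave 34945 of 45101 probe sets 1 symbol, and 932 several. The latter were left out, 4 of them naming Cyp1 to Cyp4 genes, as were 64 controls. The groups came from genotype labels and titles. A model of 5 group means was fitted to 15 arrays by lmFit and eBayes (limma 3.58.1, R 4.3.3), with Benjamini-Hochberg adjustment over 18193 genes at 0.05. It was also run on simulated data with independent noise on each array, which cannot show the effect of arrays that share an animal. SE is that of a log2 difference. Members and lists were chosen with earlier results of these data known. Named were up to 12 called members a direction, the member with the largest difference in uncalled subfamilies, members near a call where the text needed them, and up to 4 called genes a list. Other genes, among them Slc9a3, Ahr, Nr1i2, Nr1i3, Hnf4a and Ppara, were chosen after their values were seen. Alternatives were other probe set choices, filters, normalization, priors, arrays left out, covariate and blocks. Adjacent and tumour arrays are paired by the animal in their titles. Deviations from group means correlated at 0.281 for replicate 1, between -0.0155 and 0.182 for replicates 2 and 3, and between -0.259 and -0.0881 across animals. The number of arrays limits the precision.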

Additional observations from a re-analysis of the deposited data

How the results depend on the processing

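Between tumour and adjacent tissue the count of 25 called members (21 lower) lay between 20 and 26 under every alternative but 1, with the same sign for every called member tested. The exception tests only genes above the median mean, which leaves fewer members and gave 15. With a replicate block by animal, and by number, 25 were called and no call changed, and single-array omissions gave 24 to 26. Tumour against wild type gave 27 to 31 without single arrays, 16 among genes above the median mean and 0 with the control-RNA covariate. Adjacent tissue against wild type (5) gave 3 at a fold of at least 1.5, 8 with cyclic loess and 3 with only the groups compared. Cyclic loess kept 3 of the 5 main calls, and the fit of only the groups compared kept 1. The comparison gave 0 with the covariate, 2 with animal as a random block, 2 with arrays of an animal averaged, and 2 to 11 without single arrays. Olfm4 mutant against wild type (1) gave 0 under each of these settings and among genes above the median mean, and 0 to 2 without single arrays. Adjacent tissue against APC mutant (2) gave 1 among genes above the median mean, 1 at the fold minimum, 0 with cyclic loess, 0 with the covariate, 1 with the random block, 0 with averaged arrays, and 0 to 1 without single arrays. Signs turned with the covariate for Cyp1b1 (-1.78) and Cyp2c37 (-0.14) in tumour against wild type and Cyp2j6 (-0.19) in adjacent against APC mutant, and with the most variable probe set for Cyp2j6 (-0.33). For normalization and left-out arrays the cause was not tested. The covariate nearly follows the groups, which raised the median SE in tumour against wild type from 0.24 to 0.98. Signal limits the 24 dim members, for which a fall could hardly be measured.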

Other observations

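Among the 21 members that fell in tumours, tumour replicate 1 was the highest of the 3 tumour arrays for 16, and adjacent replicate 1, from the same animal, the lowest of the adjacent arrays for 16. Wild type replicate 2 was the lowest wild type array for 11 of the 21, though for Cyp2c65 and Cyp4f14 it was the highest, at 11.17 and 11.43. Such counts were not made over all genes, so they are not shown to be particular to these members.

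Probe sets of a gene did not always give one value. Those of Cyp1b1 differed between tumour and adjacent tissue by 1.56, 0.43 and 0.11, and those of Cyp2j6 by -0.01 and -0.37. Those of Cyp4f16 gave -0.96 and -1.32. Of the 16 genes of other P450 families, Cyp11a1, the first enzyme of steroid synthesis, rose by 1.80 (SE 0.33, limma adjusted p = 0.0011), but with the control-RNA covariate it differed by 1.49 and was not called (0.08). Star, which feeds cholesterol to it, differed by 0.09 and was not called. Cyp27b1, which activates vitamin D, rose by 0.50 (SE 0.15, limma adjusted p = 0.025) at a tumour mean of only 4.81. That call was lost without adjacent replicate 1 (0.071) or 3 (0.07), without tumour replicate 2 (0.085) or 3 (0.084), with the arrays of an animal averaged (0.14), with the control-RNA covariate (0.23) and at a fold of at least 1.5.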
